A study of Mus musculus with 14 samples.

Results

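The 32 genes described here encode enzymes of cholesterol and fatty acid synthesis, the regulators that switch those enzymes on, and a sterol carrier. They were taken as a listed set of mouse symbols and found by Ensembl gene ID in a table of 55487 gene rows. All 32 were present, and all 32 were among the 14754 genes with enough counts to be tested. By role they were 5 regulators of the sterol-sensing transcription factors, 7 genes of the mevalonate branch, 9 genes of the branch that leads to cholesterol through squalene, 1 sterol carrier, 3 genes of fatty acid synthesis, 4 desaturases and 3 elongases. The set does not hold every gene of these pathways.

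Messenger RNA was sequenced from monocytes purified from the leg bone marrow of mice, with a purity of 90 to 95% by flow cytometry (per the labels), after 3 h in culture. The groups were AhR-deficient cells in 20 ng/mL of mouse IL-4 and AhR-deficient cells in medium (n = 3 each, numbers 4, 5 and 6), and wild-type cells in the same IL-4 and wild-type cells in medium (n = 4 each, numbers 1, 2, 3 and 7). AhR, the aryl hydrocarbon receptor, is a ligand-activated transcription factor, and IL-4 is a cytokine that drives alternative activation of monocytes and macrophages. The AhR allele, the strain, age and sex of the mice, and whether a library came from 1 animal or a pool were not stated in the sources used here, so the p-values measure the spread between libraries, which may be technical.

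Cells make cholesterol from acetyl-CoA by way of mevalonate and squalene, and fatty acids from the same acetyl-CoA by way of malonyl-CoA. Both routes are switched on by SREBP transcription factors, which are held in the endoplasmic reticulum by SCAP and the INSIG proteins while sterols are plentiful and are released and cleaved when sterols fall. In macrophages these routes supply membranes and the substrates of lipid mediators, and the opposing LXR receptors promote sterol efflux when sterols are in excess.

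SREBPs are known to bind sterol regulatory elements beside CCAAT boxes close to the start of their target genes, so 5 upstream windows are shown, for genes whose values are described below. Each window holds the 250 bases before the RefSeq start of the gene in the GRCm38.p6 build, read 5′ to 3′ on the strand of the gene. Capitals mark a match on either strand to the sterol element core TCACNCCAC or its shorter form TCACNCCA, the CCAAT box (ATTGG on the other strand) or the E-box CACGTG. The windows lie at chr15:82147019-82147268 for Srebf2, chr5:28071162-28071411 for Insig1, chr13:119690101-119690350 for Hmgcs1 and chr10:76531355-76531604 for Lss, all on the plus strand, and at chr11:120824548-120824797 on the minus strand for Fasn.
Srebf2: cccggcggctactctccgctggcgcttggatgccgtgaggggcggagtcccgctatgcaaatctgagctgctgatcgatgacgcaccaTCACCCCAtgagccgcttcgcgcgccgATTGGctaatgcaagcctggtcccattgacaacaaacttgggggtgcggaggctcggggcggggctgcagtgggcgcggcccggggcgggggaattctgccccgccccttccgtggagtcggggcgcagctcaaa
Insig1: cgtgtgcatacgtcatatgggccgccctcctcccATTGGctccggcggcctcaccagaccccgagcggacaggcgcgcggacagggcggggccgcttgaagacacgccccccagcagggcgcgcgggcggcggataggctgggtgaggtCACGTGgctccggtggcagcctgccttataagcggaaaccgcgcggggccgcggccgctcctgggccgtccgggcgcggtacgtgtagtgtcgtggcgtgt
Hmgcs1: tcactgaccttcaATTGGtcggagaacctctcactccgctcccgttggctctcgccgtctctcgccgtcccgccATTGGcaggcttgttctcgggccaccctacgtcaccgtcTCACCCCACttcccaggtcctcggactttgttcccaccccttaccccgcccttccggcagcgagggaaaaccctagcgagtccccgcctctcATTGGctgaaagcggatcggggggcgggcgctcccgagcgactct
Lss: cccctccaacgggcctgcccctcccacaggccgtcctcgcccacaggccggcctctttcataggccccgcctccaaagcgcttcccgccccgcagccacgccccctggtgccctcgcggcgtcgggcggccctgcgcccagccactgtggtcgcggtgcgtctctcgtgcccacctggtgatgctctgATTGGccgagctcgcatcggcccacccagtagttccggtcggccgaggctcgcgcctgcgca
Fasn: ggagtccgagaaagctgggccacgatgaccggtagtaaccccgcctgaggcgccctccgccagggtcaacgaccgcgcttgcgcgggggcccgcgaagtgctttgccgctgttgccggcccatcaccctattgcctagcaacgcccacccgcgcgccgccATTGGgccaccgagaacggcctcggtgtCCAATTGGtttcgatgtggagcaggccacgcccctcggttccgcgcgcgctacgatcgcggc

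All 5 windows held at least 1 CCAAT box, which lay 135 to 131 bases before the start in Srebf2 and 62 to 58 bases before it in Lss. The shorter sterol element core was matched 162 to 155 bases upstream in Srebf2, and the full core 137 to 129 bases upstream in Hmgcs1. These distances are from the RefSeq starts. In the GENCODE M21 annotation the start of Srebf2 (82147181) lies inside its window, as do those of Insig1 (28071363) and Lss (76531588). The bases just after the Hmgcs1 window were not found in its GENCODE M21 transcripts. The shorter form was added after the Srebf2 window had been read. RefSeq windows matched 25 of the 32 genes, and a CCAAT box was found in 20 of those 25, against 37.5% of all 27025 genes with a window. The full sterol core was found in 1 of the 25 (1.22% of all genes), the shorter core in 3, which were Srebf2, Hmgcs1 and Msmo1 (4.2% of all genes), and the E-box in 6 (6.86% of all genes). A palindrome of TTC and GAA with 4 bases between them, the type of site bound by the IL-4-activated factor STAT6, was found in 1 of the 25, Elovl1 (6.76% of all genes). A match describes letters in the window and no binding was measured.

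Levels are in CPM, edgeR's counts scaled by library size and TMM factors, and between genes they are compared per kilobase of merged exons. In wild-type cells in medium the highest levels per kilobase were those of the elongases Elovl1 (47.8 ± 1.54 CPM per kb) and Elovl5 (35.5 ± 1.52 CPM per kb), and of Srebf2 (26.2 ± 0.698 CPM per kb; SD, n = 4). Elovl1 and Elovl5 extend long saturated and polyunsaturated chains, and Srebf2 encodes the SREBP that mainly drives cholesterol synthesis. Srebf1, which encodes the SREBP tied mainly to fatty acid synthesis, stood at 13.6 ± 0.642 CPM per kb. At the low end were Scd1, at 0.0733 ± 0.028 CPM per kb, and Fdps, at 0.318 ± 0.0507 CPM per kb. Over all 14 libraries Scd1 had 337 counts, Fads2 839 and Fdps 977, which limits the precision of their ratios. The count of Fdps is also uncertain because 81.6% of its transcript is identical to the annotated gene Gm43738.

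Library totals ran from 33432502 to 42885079 counts, and the first principal component over all genes (46.7% of the variance) parted the IL-4 libraries from the medium libraries. Ahr counts checked nothing about a deleted exon and were not lower under the AhR-deficient label, at 36.9 to 45.2 CPM against 23.7 to 26.9 CPM in wild type in IL-4, and at 15.7 to 26.1 CPM against 11.4 to 14.4 CPM in wild type in medium. Xist, expressed from the inactive X chromosome of female cells, stood at 987 to 1284 CPM across the 6 AhR-deficient libraries and did not exceed 2.12 CPM in any wild-type library, so genotype and sex-typed transcripts cannot be told apart. The 10 monocyte markers summed to 15095 to 16749 CPM in IL-4 and 23720 to 27191 CPM in medium in AhR-deficient cells. In wild type they summed to 14982 to 16418 CPM in IL-4 and 23362 to 26410 CPM in medium. In AhR-deficient cells 6 of the 10 fell with IL-4 (60%, against 14.2% of all genes tested). In wild type 7 fell (70%, against 16.5%). The sums were mostly Lyz2, and Fcgr1, the lowest of the 10, averaged 23.8 to 48.5 CPM per group. The 6 dendritic cell markers summed to 168 to 199 CPM in IL-4 and 102 to 153 CPM in medium in AhR-deficient cells, and to 131 to 170 CPM in IL-4 and 77.6 to 129 CPM in medium in wild type. Of 5 that could be tested, Flt3 rose in both genotypes and Cd209a in AhR-deficient cells. Flt3 averaged 80.6 CPM in IL-4 and 33.1 CPM in medium in AhR-deficient cells, and 76.5 CPM and 34.6 CPM in wild type. Siglech, Zbtb46 and Bst2 did not pass. Their log2 fold changes were -0.37, -0.68 and -0.12 in AhR-deficient cells and 0.06, -0.53 and -0.13 in wild type. The 7 T and NK cell markers summed to 4.24 to 6.11 CPM in IL-4 and 20.4 to 24.7 CPM in medium in AhR-deficient cells, and to 3.21 to 5.7 CPM in IL-4 and 15.6 to 29.4 CPM in medium in wild type, with a fall of Klrd1 in both genotypes and Ncr1 at 0 in 3 groups. The part of these shifts in the IL-4 results was not tested. Sums were at most 3.94 CPM for 7 B cell genes and 60.4 CPM for 6 erythroid genes in any library. In bulk RNA, fewer cells of a type and less RNA per cell cannot be told apart.

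IL-4 raised part of the set in both genotypes, and lowered 2 of its genes. In AhR-deficient cells 7 of the 32 genes rose (21.9%, against 15.4% of all genes tested) and 2 fell (6.25%, against 14.2%), by edgeR's quasi-likelihood test with Benjamini-Hochberg adjustment over all genes. In wild-type cells 13 of the 32 rose (40.6%, against 19.4% of all genes tested) and 2 fell (6.25%, against 16.5%). The share that rose in wild type was above that of all genes, and that in AhR-deficient cells was nearer to it. The genes were listed with earlier results of these data known, so these shares describe the set and test nothing about it. Wild type had 4 libraries per group and AhR-deficient cells 3, so the 2 counts of calls are not on equal terms. The median log2 fold change of the set was 0.05 in AhR-deficient cells, where that of all genes was -0.01, and 0.20 in wild-type cells, where that of all genes was 0.01. The 7 genes that rose in both genotypes were Scap, Mvd, Lss, Dhcr7, Fasn, Scd1 and Scd2, and the 2 that fell in both were Fads1 and Elovl5. A further 6 passed in wild type and not in AhR-deficient cells, namely Srebf2, Insig1, Pmvk, Sqle, Sc5d and Elovl6, which by itself does not show that the genotypes differ, and 17 passed in neither. With the library number as a block, 8 rose (18.4% of all genes) and 3 fell (17.8%) in AhR-deficient cells, and 15 rose (22.8%) and 2 fell (19.9%) in wild type. Without both AhR-deficient libraries of number 4, an alternative chosen after seeing the data, 3 rose in AhR-deficient cells, as Mvd, Lss, Dhcr7 and Scd1 did not pass (edgeR adjusted p = 0.0532 to 0.214). Without wild-type numbers 1 and 2, the wild-type rises of Srebf2, Insig1, Pmvk, Sqle, Sc5d and Scd1 did not pass (edgeR adjusted p = 0.115 to 0.449). Both settings have fewer libraries, and these losses were not set against those of all genes.

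**Figure D1:**
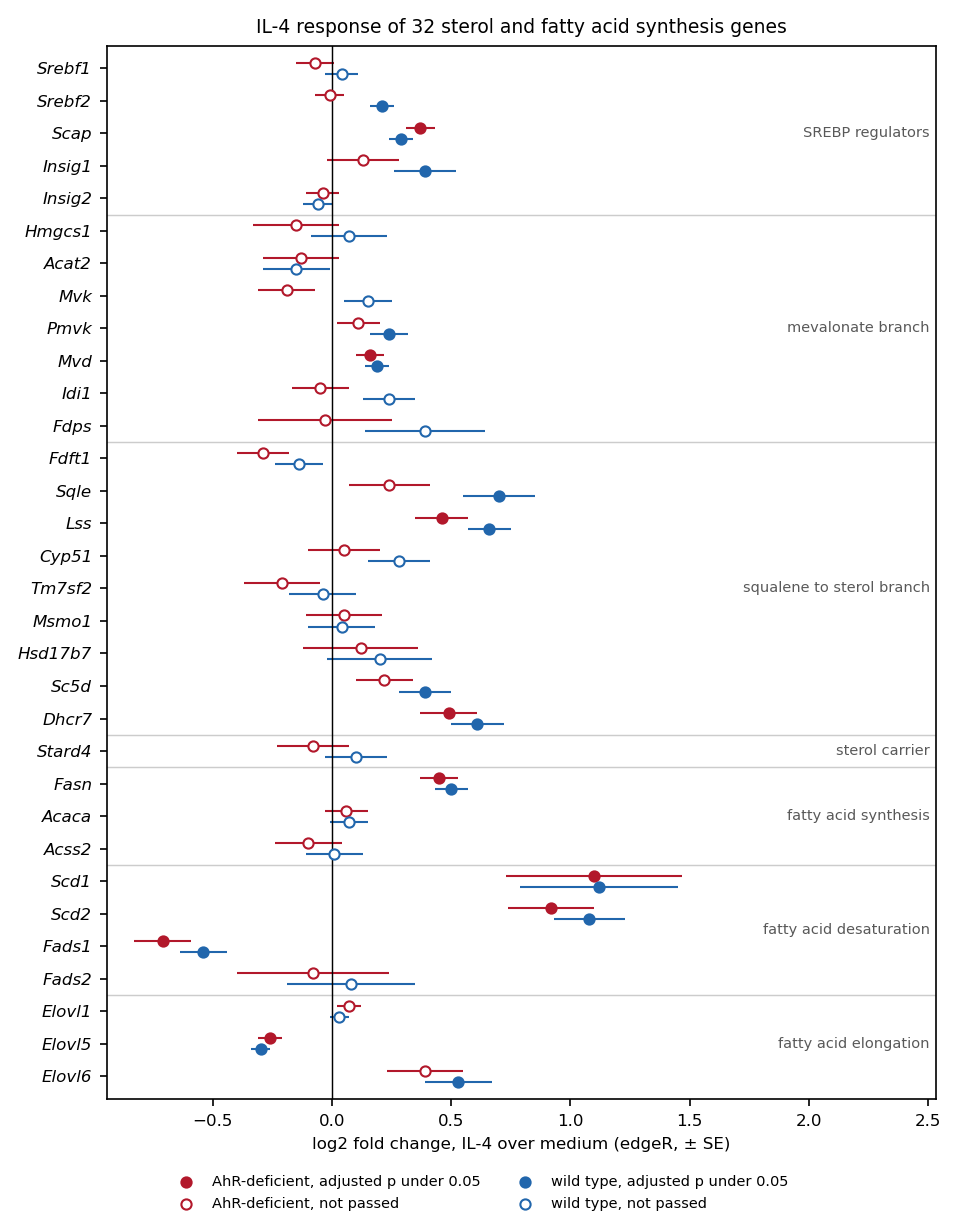
Log2 fold change of each of the 32 genes in IL-4 over medium (± SE, edgeR), with AhR-deficient cells above wild-type cells in each row and filled points for an adjusted p under 0.05. Filled points lie right of 0 for 7 genes in AhR-deficient cells and 13 in wild type, and left of 0 for Fads1 and Elovl5 in both.

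Among the SREBP regulators, Scap, which encodes the escort protein that carries SREBPs to the Golgi, rose in both genotypes. It had 39.6, 42.9 and 42.8 CPM in AhR-deficient IL-4 libraries, against 31.8, 31.9 and 33.2 CPM in medium. In wild type it had 44.4, 42.6, 43.3 and 45.5 CPM in IL-4, against 38.2, 36.4, 32.1 and 36.8 CPM in medium. Every IL-4 library was above every medium library of its genotype, with log2 fold changes of 0.37 ± 0.06 in AhR-deficient cells (SE, n = 3 each, edgeR adjusted p = 0.000472) and 0.29 ± 0.05 in wild type (n = 4 each, edgeR adjusted p = 0.000748). Srebf2 (ENSMUSG00000022463.8, chr15:82147181-82205379 on the plus strand in GRCm38) had 234, 245 and 243 CPM in AhR-deficient IL-4 libraries against 263, 227 and 240 CPM in medium, and the groups overlapped. In wild type Srebf2 had 227, 223, 211 and 214 CPM in IL-4, against 183, 185, 194 and 191 CPM in medium, with no overlap. Its log2 fold change was 0.21 ± 0.05 in wild type (edgeR adjusted p = 0.0029) and -0.01 ± 0.06 in AhR-deficient cells (edgeR adjusted p = 0.901).

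Insig1 (ENSMUSG00000045294.11, chr5:28071363-28078662, plus strand) encodes a sterol-dependent anchor of SCAP and is itself a well-known SREBP target. It had 78.4, 65.3 and 64.6 CPM in AhR-deficient IL-4 libraries, against 76.7, 53.9 and 59.3 CPM in medium. In wild type it had 58.3, 62.4, 69.8 and 54.8 CPM in IL-4, against 38.0, 41.9, 56.3 and 50.8 CPM in medium. Each IL-4 library exceeded the medium library of its own number in 3 of 3 and 4 of 4 pairs, while the groups overlapped. The log2 fold change passed in wild type (0.39 ± 0.13, edgeR adjusted p = 0.0338) and missed the threshold in AhR-deficient cells (0.13 ± 0.15, adjusted p = 0.579). The wild-type call of Insig1 was lost without wild-type IL-4 number 1, 2 or 3 or medium number 1 or 2, with an adjusted p of up to 0.0989. Srebf1 and Insig2, the second INSIG gene, did not pass in either genotype, with log2 fold changes of -0.07 and -0.04 in AhR-deficient cells and 0.04 and -0.06 in wild type.

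In the mevalonate branch 1 of 7 genes rose in AhR-deficient cells (14.3%, against 15.4% of all genes) and 2 of 7 in wild type (28.6%, against 19.4%). Mvd, whose enzyme decarboxylates diphosphomevalonate to the first isoprene unit, had 39.0, 38.7 and 40.5 CPM in AhR-deficient IL-4 libraries against 33.5, 35.4 and 36.7 CPM in medium, and 38.6, 40.2, 38.7 and 42.5 CPM in wild-type IL-4 libraries against 37.0, 33.6, 34.8 and 35.0 CPM in medium. These small shifts, with every IL-4 library above every medium library, were 0.16 ± 0.06 in AhR-deficient cells (edgeR adjusted p = 0.0425) and 0.19 ± 0.05 in wild type (adjusted p = 0.00729) on the log2 scale. The AhR-deficient call of Mvd was lost without AhR-deficient IL-4 number 4, 5 or 6, AhR-deficient medium number 4 or 5, or wild-type medium number 7, with an adjusted p of up to 0.164. It was also lost with no filter (0.11) and with only those groups in the model (0.0537), and the wild-type call without both libraries of number 7 (0.0584). Pmvk, whose kinase acts just before Mvd, rose in wild type (0.24 ± 0.08, edgeR adjusted p = 0.0236) and had a log2 fold change of 0.11 ± 0.09 in AhR-deficient cells (adjusted p = 0.397). Its wild-type call was lost without wild-type IL-4 number 1, 2 or 7 or medium number 1, 2 or 3, with an adjusted p of up to 0.0707, and with no filter (0.059). Hmgcs1, which makes HMG-CoA and whose upstream window holds the full sterol element core, did not pass, at -0.15 ± 0.18 in AhR-deficient cells and 0.07 ± 0.16 in wild type. Its wild-type pairs ran from -0.34 to 0.57, with 2 of 4 higher in IL-4. Acat2, whose thiolase joins acetyl-CoA units, shares 98.7% identity over 19.8% of its transcript with Tcp1, which stood at 220.0 CPM against 6.61 CPM for Acat2, so its count is uncertain. Acat2, Mvk, Idi1 and Fdps did not pass in either genotype, with log2 fold changes of -0.19 to -0.03 in AhR-deficient cells and -0.15 to 0.39 in wild type. With the library number as a block, Idi1, which isomerises the isoprene unit, rose in wild type (edgeR adjusted p = 0.0419, against 0.0978 without the block), and so it did without wild-type IL-4 number 7 (0.0465).

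From squalene onward 2 of 9 genes rose in AhR-deficient cells (22.2%, against 15.4% of all genes) and 4 of 9 in wild type (44.4%, against 19.4%). Sqle (ENSMUSG00000022351.14, chr15:59315077-59331192, plus strand) encodes squalene epoxidase, a rate-limiting enzyme of the pathway. It had 35.7, 32.4 and 29.3 CPM in AhR-deficient IL-4 libraries, against 35.0, 23.1 and 24.1 CPM in medium. In wild type it had 28.6, 26.5, 28.8 and 23.9 CPM in IL-4, against 13.2, 15.4, 21.5 and 16.2 CPM in medium. The wild-type groups did not overlap and the AhR-deficient groups did, because medium number 4 lay near the top of the IL-4 range. Sqle rose by 0.70 ± 0.15 on the log2 scale in wild type (edgeR adjusted p = 0.00224) and had 0.24 ± 0.17 in AhR-deficient cells (adjusted p = 0.328).

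Lss, whose enzyme closes the sterol rings to form lanosterol, had 6.51, 6.27 and 5.48 CPM in AhR-deficient IL-4 libraries against 4.39, 4.69 and 4.18 CPM in medium, and 6.67, 7.57, 6.15 and 7.39 CPM in wild-type IL-4 libraries against 4.20, 4.16, 4.87 and 4.33 CPM in medium. Dhcr7, whose enzyme makes the final reduction to cholesterol, had 6.48, 6.99 and 6.6 CPM in AhR-deficient IL-4 libraries against 4.58, 4.87 and 4.84 CPM in medium, and 7.68, 7.66, 6.67 and 7.53 CPM in wild-type IL-4 libraries against 5.60, 5.51, 4.33 and 3.98 CPM in medium. For both genes every IL-4 library lay above every medium library of its genotype. The log2 fold changes in AhR-deficient cells were 0.46 ± 0.11 for Lss and 0.49 ± 0.12 for Dhcr7 (edgeR adjusted p = 0.00494 and 0.00753), and in wild type 0.66 ± 0.09 and 0.61 ± 0.11 (adjusted p = 7.33e-05 and 0.000457). Without both AhR-deficient libraries of number 4 neither rise in AhR-deficient cells passed (adjusted p = 0.0609 for Lss and 0.0532 for Dhcr7). Sc5d, a sterol desaturase gene acting just before Dhcr7, rose in wild type (0.39 ± 0.11, edgeR adjusted p = 0.00993) and had 0.22 ± 0.12 in AhR-deficient cells (adjusted p = 0.198, or 0.0198 without AhR-deficient medium number 4).

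The other 5 genes of this branch did not pass in either genotype. Fdft1, the squalene synthase gene, had -0.29 ± 0.11 in AhR-deficient cells (edgeR adjusted p = 0.0664, and a fall with the number as a block at an adjusted p of 0.041) and -0.14 ± 0.10 in wild type. It fell on omission of AhR-deficient medium number 5 or of wild-type medium number 1 or 3, at an adjusted p of 0.0311 to 0.0397. Fdft1 overlaps Ctsb on the opposite strand over 18.3% of its exon bases, and Ctsb stood at 1189 CPM against 22.3 CPM for Fdft1. The strand setting of the counting is not given in the sources used here, so reads of the overlapping bases may not be told apart. Cyp51, the lanosterol demethylase gene, had 0.05 ± 0.15 in AhR-deficient cells and 0.28 ± 0.13 in wild type, where it rose with the block (adjusted p = 0.0211), with only those groups in the model (0.0408) or without both libraries of number 4 (0.0213). Tm7sf2, Msmo1 and Hsd17b7, which act between lanosterol and the late sterols, had log2 fold changes of -0.21, 0.05 and 0.12 in AhR-deficient cells and -0.04, 0.04 and 0.20 in wild type. Tm7sf2 overlaps Vps51 on the same strand over 12.1% of its exon bases, and Vps51 stood at 52.1 CPM against 5.44 CPM for Tm7sf2. Stard4, which carries sterols between membranes, had -0.08 ± 0.15 in AhR-deficient cells and 0.10 ± 0.13 in wild type, and did not pass.

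The widest IL-4 changes of the set in both genotypes were those of Scd1 and Scd2. Scd2 (ENSMUSG00000025203.6, chr19:44293674-44306864, plus strand), which encodes a stearoyl-CoA desaturase that makes monounsaturated fatty acids, had 36.4, 33 and 44.1 CPM in AhR-deficient IL-4 libraries, against 21.3, 17 and 21.8 CPM in medium. In wild type it had 89.9, 73.4, 62.0 and 65.7 CPM in IL-4, against 43.6, 34.6, 32.9 and 26.2 CPM in medium. Every IL-4 library exceeded every medium library of its genotype, with a log2 fold change of 0.92 ± 0.18 in AhR-deficient cells (edgeR adjusted p = 0.00139) and 1.08 ± 0.15 in wild type (adjusted p = 7.2e-05). The AhR-deficient IL-4 libraries, at 33 to 44.1 CPM, lay close to wild type in medium, at 26.2 to 43.6 CPM. Its neighbour on chromosome 19, Scd1, encodes an enzyme of the same activity and rose by a like factor at far lower levels, 0.889, 1.07 and 0.888 CPM against 0.414, 0.387 and 0.529 CPM in AhR-deficient cells and 0.659, 1.18, 0.893 and 0.395 CPM against 0.229, 0.551, 0.339 and 0.315 CPM in wild type. The log2 fold changes of Scd1 were 1.1 ± 0.37 (edgeR adjusted p = 0.0384) and 1.12 ± 0.33 (adjusted p = 0.0162). The first was lost without any 1 of the 6 AhR-deficient libraries (adjusted p of up to 0.115) and with no filter (0.0562), and the second without wild-type IL-4 number 2 (adjusted p = 0.0645). The transcripts of Scd2 and Scd1 share a stretch of 95.5% identity over 11.4% of the Scd2 transcript.

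Fads1 (ENSMUSG00000010663.5, chr19:10182888-10196877, plus strand), whose desaturase makes arachidonic acid, fell in both genotypes. It had 14.3, 13.1 and 14.3 CPM in AhR-deficient IL-4 libraries against 22.8, 23.6 and 21.8 CPM in medium, and 16.0, 14.7, 11.3 and 17 CPM in wild-type IL-4 libraries against 23.1, 21.8, 20.1 and 21 CPM in medium. No IL-4 library reached the lowest medium library, with log2 fold changes of -0.71 ± 0.12 in AhR-deficient cells (edgeR adjusted p = 0.000311) and -0.54 ± 0.10 in wild type (adjusted p = 0.000668). Elovl5, which elongates polyunsaturated chains on either side of the Fads1 step, fell as well, by 0.26 ± 0.05 in AhR-deficient cells (edgeR adjusted p = 0.00125) and by 0.30 ± 0.04 in wild type (adjusted p = 7.44e-05). Elovl5 averaged 97.4 ± 2.13 CPM in AhR-deficient cells in IL-4 and 116.5 ± 4.82 CPM in medium (SD, n = 3 each), and 101.1 ± 3.24 CPM in wild type in IL-4 and 124.9 ± 5.36 CPM in medium (SD, n = 4 each). Fads2, the first desaturase of the same polyunsaturated route, was low, at 1.02 to 2.40 CPM over all libraries, and did not pass, with log2 fold changes of -0.08 ± 0.32 in AhR-deficient cells and 0.08 ± 0.27 in wild type.

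Fasn (ENSMUSG00000025153.9, chr11:120805846-120824547, minus strand), the fatty acid synthase gene, had 65.4, 74.1 and 73.9 CPM in AhR-deficient IL-4 libraries against 50.0, 53.5 and 52.3 CPM in medium, and 77.8, 78.6, 68.3 and 69.7 CPM in wild-type IL-4 libraries against 58.2, 51.0, 46.8 and 52.8 CPM in medium. The groups did not overlap in either genotype, with log2 fold changes of 0.45 ± 0.08 in AhR-deficient cells (edgeR adjusted p = 0.000709) and 0.50 ± 0.07 in wild type (adjusted p = 7.44e-05). Acaca, which supplies malonyl-CoA to Fasn, and Acss2, which makes acetyl-CoA from acetate, did not pass, with 0.06 ± 0.09 and -0.10 ± 0.14 in AhR-deficient cells and 0.07 ± 0.08 and 0.01 ± 0.12 in wild type. Acaca shares 99.2% identity over 64.3% of its transcript with the annotated gene Gm5182, which stood at 0.468 CPM. Elovl6, which extends the palmitate that Fasn makes, rose in wild type (0.53 ± 0.14, edgeR adjusted p = 0.00857, or 0.0796 without both libraries of number 7) and had 0.39 ± 0.16 in AhR-deficient cells (adjusted p = 0.0922, or 0.0264 with the number as a block and 0.0382 without AhR-deficient medium number 6). Its AhR-deficient libraries did not overlap, at 9.44, 9.64 and 10.6 CPM in IL-4 against 6.18, 7.53 and 9.02 CPM in medium. Elovl1 had log2 fold changes of 0.07 ± 0.05 in AhR-deficient cells and 0.03 ± 0.04 in wild type and did not pass.

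**Figure D2:**
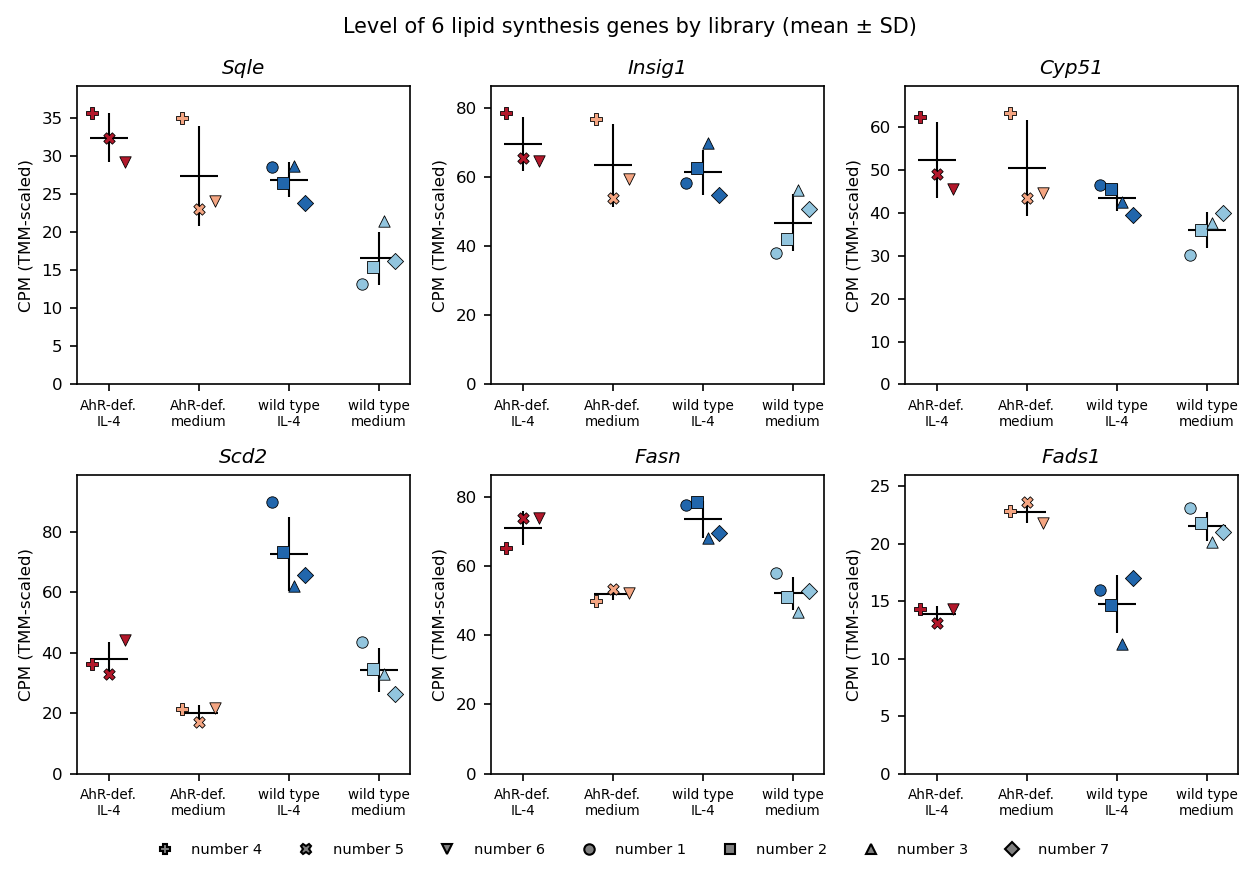
CPM of 6 genes in each library, with AhR-deficient groups left of wild-type groups, IL-4 left of medium, 1 symbol per library number, and black lines for the mean ± SD (n = 3 or 4). Scd2 and Fasn are higher and Fads1 lower in every IL-4 library than in any medium library of the genotype, while number 4 (plus sign) is the highest AhR-deficient library for Sqle, Insig1 and Cyp51.

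The test of whether the genotypes responded differently to IL-4 called none of the 32 genes. edgeR's interaction test called 0 of 14754 genes (0.0%), with 558 at an unadjusted p under 0.05 (1 of them in the set). DESeq2 called 3 genes (0.0203%), 0 of them in the set, with 501 below 0.05 before adjustment (1 in the set). With the number as a block edgeR again called 0, with 1251 below 0.05 before adjustment (3 in the set). Srebf2 had the lowest unadjusted p of the set (difference of the log2 fold changes -0.23 ± 0.07, edgeR adjusted p = 1.0, or 0.509 with the block). Sqle had the widest difference (-0.45 ± 0.23, adjusted p = 1.0, or 0.509 with the block). The log2 fold change was larger in wild type for 26 of the 32 genes, against 7894 of all 14754 genes. Among the 16 sterol enzymes it was larger in wild type for 14, and among the 10 fatty acid enzymes for 8. All these genes were measured in the same libraries, so their signs are not separate observations. The tallies therefore do not show that the genotypes responded differently.

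After 3 h in medium without IL-4, several sterol genes stood higher in AhR-deficient than in wild-type cells. Of the 32 genes, 5 were higher (15.6%, against 4.16% of all genes tested) and 1 was lower (3.12%, against 3.95%), by edgeR's quasi-likelihood test with Benjamini-Hochberg adjustment. DESeq2 called 8 higher (7.09% of all genes), adding Insig1, Pmvk and Msmo1. The 16 sterol enzymes had a median log2 difference of 0.33, where all genes had 0.01, and 14 of the 16 were positive. Single libraries bear on this median, as number 4 was the highest AhR-deficient medium library for 13 of the 16. Number 1 was the lowest wild-type medium library for 9. Of the 10 fatty acid enzymes 4 were positive. The counts of positive genes have no share of all genes beside them. The genotype differences in medium and the wild-type IL-4 responses share the wild-type medium libraries, so neither is separate support for the other.

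Srebf2 was higher in every AhR-deficient medium library, at 263, 227 and 240 CPM, than in any wild-type medium library, at 183, 185, 194 and 191 CPM. The log2 difference was 0.37 ± 0.05 (edgeR adjusted p = 0.0028), and it passed without each of the 14 libraries in turn (adjusted p of up to 0.0186). Sqle had 35.0, 23.1 and 24.1 CPM in AhR-deficient medium libraries and 13.2, 15.4, 21.5 and 16.2 CPM in wild-type ones, with no overlap (0.72 ± 0.16, edgeR adjusted p = 0.0202). Its call was lost without AhR-deficient medium number 4 or wild-type medium number 2 (adjusted p of up to 0.125).

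The other sterol genes called higher in AhR-deficient cells in medium were closer to the threshold. Idi1 had 12.8, 10.9 and 10.8 CPM against 7.20, 8.38, 9.49 and 8.71 CPM in wild type (log2 difference 0.45 ± 0.12, edgeR adjusted p = 0.0343). Cyp51 had 63.3, 43.5 and 44.6 CPM against 30.2, 36, 37.6 and 40.1 CPM in wild type (0.49 ± 0.14, adjusted p = 0.046). Fdft1 had 31.7, 24.4 and 27.0 CPM against 17.6, 21.6, 24.6 and 20.5 CPM in wild type (0.39 ± 0.10, adjusted p = 0.0373). Idi1 and Cyp51 did not overlap between the genotypes, and Fdft1 did. Among fits that left out 1 library each, Idi1 passed in 10 of 14, Fdft1 in 7 and Cyp51 in 5. Leaving out AhR-deficient medium number 4 or 6, or wild-type medium number 1 or 2, ended the call of all 3 (adjusted p of up to 0.257). Cyp51 was also lost without AhR-deficient IL-4 number 5 or any wild-type IL-4 library, and Fdft1 without AhR-deficient IL-4 number 5, wild-type IL-4 number 1 or wild-type medium number 7. Of the genes that did not pass, Fdps (0.75 ± 0.27, edgeR adjusted p = 0.0941), Hsd17b7 (0.51 ± 0.23, adjusted p = 0.181), Insig1 (0.44 ± 0.14, adjusted p = 0.0726), Hmgcs1 (0.43 ± 0.17, adjusted p = 0.125) and Msmo1 (0.41 ± 0.15, adjusted p = 0.0953) had the widest differences. Without single libraries, Insig1 and Scap passed on omission of wild-type medium number 3 (adjusted p = 0.0313 and 0.0259, Scap lower in AhR-deficient cells), and Pmvk on omission of AhR-deficient medium number 6 or wild-type medium number 7 (0.0411 and 0.0202).

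The levels of the sterol enzymes also varied between libraries of a group. Number 4 was the highest AhR-deficient library for 12 of the 16 sterol enzymes in IL-4 and for 13 of the 16 in medium. The summed level of the 16 genes was 432 CPM in number 4 in IL-4, against a group median of 370 CPM, and 455 CPM in number 4 in medium, against a group median of 346 CPM. Among wild-type medium libraries number 1 was the lowest for 9 of the 16, with a sum of 254 CPM against a group median of 302 CPM. Without both libraries of number 4, 1 of the 32 genes was called higher and 0 lower in AhR-deficient cells in medium. Srebf2 was the gene that remained. With wild-type numbers 1 and 2 left out, or with only the medium groups in the model, 0 were called higher by edgeR (adjusted p of Srebf2 0.0738 and 0.0537).

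**Figure D3:**
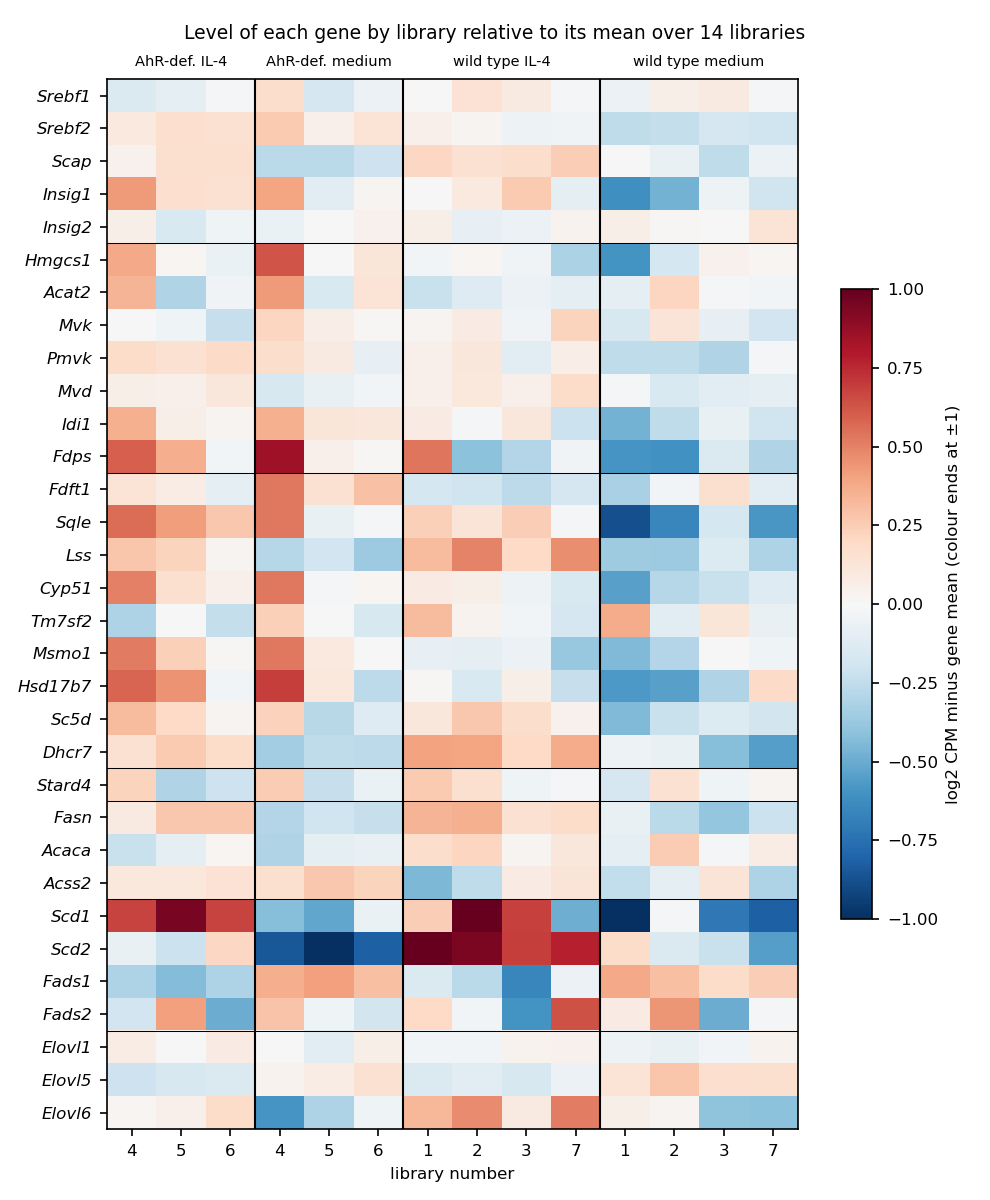
Log2 CPM of each gene in each of the 14 libraries minus the mean of that gene over all 14, in rows by branch and columns by group and library number, red above and blue below the mean. Within the AhR-deficient groups number 4 is the highest library for 12 of the 16 sterol enzymes in IL-4 and 13 in medium, and within wild type in medium number 1 is the lowest for 9.

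Scd2 went the other way and was lower in AhR-deficient cells in both conditions. Its values in IL-4, given above, were 33 to 44.1 CPM in AhR-deficient cells and 62.0 to 89.9 CPM in wild type, and in medium 17 to 21.8 CPM and 26.2 to 43.6 CPM. The genotypes did not overlap in either condition, with log2 differences of -0.94 ± 0.17 in IL-4 (edgeR adjusted p = 0.0204) and -0.78 ± 0.17 in medium (adjusted p = 0.019). In IL-4, Scd2 was the 1 gene of the 32 called between the genotypes, lower (against 0.664% of all genes lower), and 0 were called higher (against 0.956%). At an unadjusted edgeR p under 0.05, 3 were higher and 2 lower, counts with no share of all genes beside them. DESeq2 also called 0 higher (3.42% of all genes). The call in IL-4 was lost without AhR-deficient IL-4 number 4 or 5 or wild-type IL-4 number 1 or 2 (adjusted p of up to 0.112). In medium it was lost without AhR-deficient medium number 4 or 5 or wild-type medium number 2 (adjusted p of up to 0.0796). Neither Scd2 call passed without wild-type numbers 1 and 2 (edgeR adjusted p = 0.11 in IL-4 and 0.141 in medium). Both were also lost without both libraries of number 4 (0.124 and 0.0968). With only the medium groups in the model, the call in medium was lost (0.0663). In IL-4 the differences of the genes higher in medium were 0.14 ± 0.05 for Srebf2, 0.27 ± 0.16 for Sqle, 0.15 ± 0.12 for Idi1, 0.24 ± 0.10 for Fdft1 and 0.26 ± 0.14 for Cyp51, and did not pass (edgeR adjusted p = 0.169 to 0.52).

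**Figure D4:**
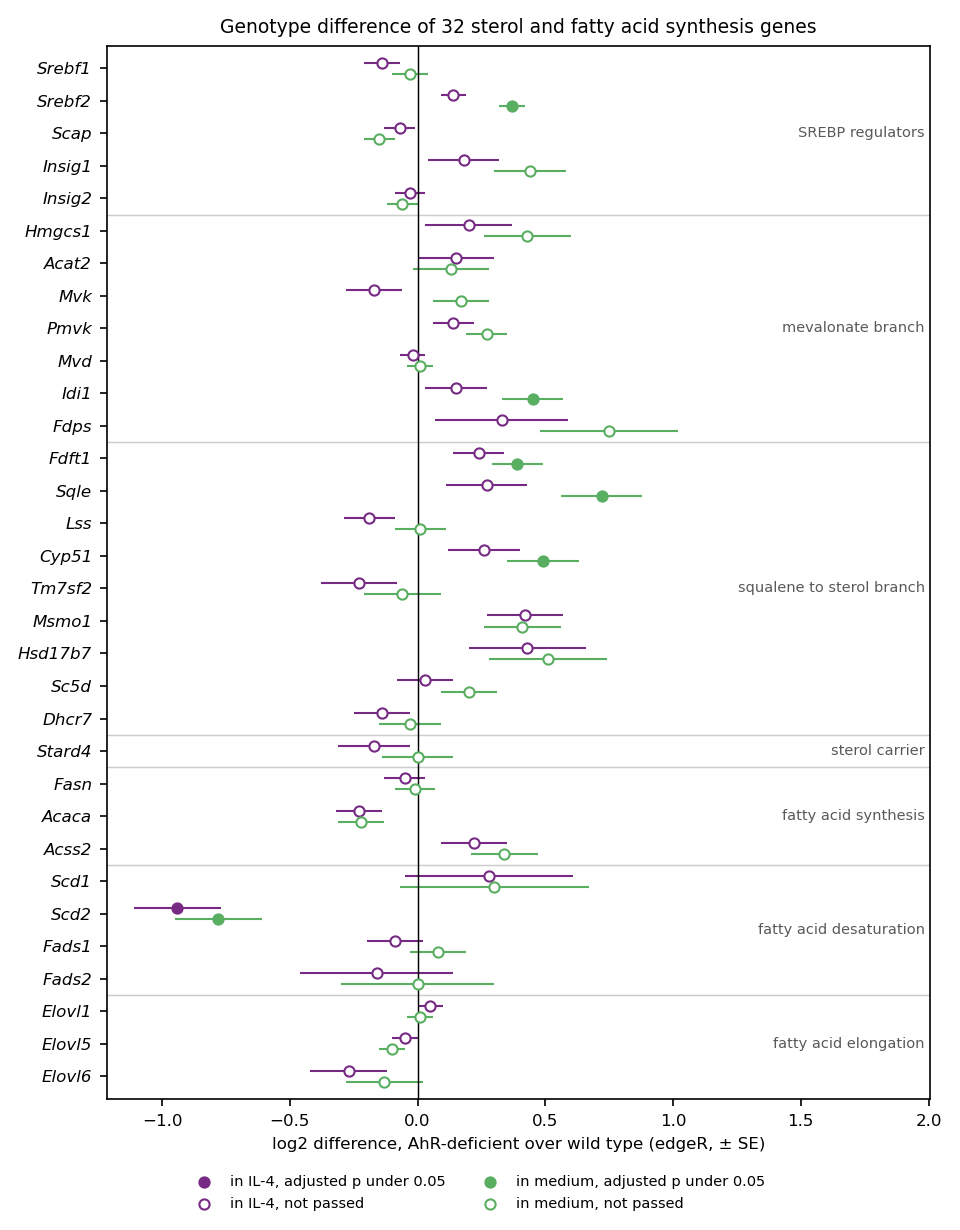
Log2 difference of each of the 32 genes, AhR-deficient over wild type (± SE, edgeR), with IL-4 above medium in each row and filled points for an adjusted p under 0.05. In medium Srebf2, Idi1, Fdft1, Sqle and Cyp51 are filled to the right of 0, and Scd2 is filled to the left of 0 in both conditions.

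Cell type markers moved with genotype beside these differences. Of the 10 monocyte markers, Ccr2, the chemokine receptor gene of classical monocytes, averaged 508 CPM in AhR-deficient cells and 1714 CPM in wild type in IL-4, and 381 CPM and 1277 CPM in medium (log2 difference -1.75 ± 0.31 in both, edgeR adjusted p = 0.0204 in IL-4 and 0.00985 in medium). Fcgr1 was higher in AhR-deficient cells in both conditions (0.97 ± 0.13 in IL-4 and 0.60 ± 0.12 in medium, adjusted p = 0.00204 and 0.0151), and Irf8 in IL-4 (0.40 ± 0.09, adjusted p = 0.0474). The 10 neutrophil markers summed to 310 to 576 CPM in AhR-deficient cells and 502 to 988 CPM in wild type in IL-4, and to 349 to 684 CPM and 438 to 1124 CPM in medium. The 7 eosinophil markers summed to 15 to 64.4 CPM in AhR-deficient cells and 36.1 to 197 CPM in wild type in IL-4, and to 14.5 to 77.4 CPM and 33.4 to 152 CPM in medium. All 10 neutrophil and all 7 eosinophil markers had negative log2 differences in both conditions, and 0 of them were called by edgeR. At an unadjusted edgeR p under 0.05, 5 and 5 were lower in IL-4 and 2 and 1 in medium. The share of all genes below that threshold is not given here, so these counts have no background. Within both AhR-deficient groups the eosinophil sum was highest in number 4, as were the basophil and mast cell sum and the cell cycle sum. Within both wild-type groups the eosinophil sum was highest in number 1. In wild-type medium number 1 also had the highest monocyte, neutrophil, neutrophil precursor, basophil and mast cell, and B cell sums. The summed sterol enzymes in medium were highest in number 4 of the AhR-deficient libraries and lowest in number 1 of the wild-type libraries. The monocyte sum was lowest in number 4 in both AhR-deficient groups, at 15095 CPM in IL-4 and 23720 CPM in medium. In wild-type IL-4 the monocyte sum was highest, and the sterol enzyme sum lowest, in number 7. The basophil and mast cell sums (5 markers) were 46.7 to 141 CPM in AhR-deficient cells and 84.1 to 249.5 CPM in wild type in IL-4, and 50 to 150.3 CPM and 85.1 to 250.1 CPM in medium. The 5 neutrophil precursor markers ran the other way, at 233 to 278 CPM in AhR-deficient cells and 154 to 252 CPM in wild type in IL-4, and 251 to 289 CPM and 141 to 236 CPM in medium, with 1 of 5 called higher in medium. The part of any of these markers in the differences was not tested. Of 10 cell cycle markers, 1 rose with IL-4 in AhR-deficient cells (10%, against 15.4% of all genes) and 5 rose in wild type (50.0%, against 19.4%), with sums of 2175 to 2280 CPM in IL-4 against 2158 to 2217 CPM in medium in AhR-deficient cells and 2347 to 2595 CPM against 2105 to 2426 CPM in wild type, and their part in the IL-4 response was not tested either.

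For genes that surround the synthesis routes, counts are set against the 15.4% of all genes that rose and 14.2% that fell in AhR-deficient cells, and the 19.4% and 16.5% in wild type. Among 17 listed genes of acyl-CoA and lipogenic supply, 16 could be tested, of which 2 rose (12.5%) and 3 fell (18.8%) in AhR-deficient cells and 3 rose (18.8%) and 3 fell (18.8%) in wild type, shares near those of all genes. Me1, the malic enzyme that yields NADPH for fatty acid synthesis, averaged 1.93 ± 0.341 CPM in IL-4 and 0.243 ± 0.0913 CPM in medium in AhR-deficient cells, and 1.71 ± 0.382 CPM in IL-4 and 0.370 ± 0.142 CPM in medium in wild type, a rise of 2.97 ± 0.36 and 2.19 ± 0.29 on the log2 scale (edgeR adjusted p = 2.12e-05 and 4.33e-05). Mid1ip1, an activator of acetyl-CoA carboxylase, fell by 0.74 ± 0.07 in AhR-deficient cells and by 0.57 ± 0.06 in wild type (adjusted p = 3.07e-06 and 6.33e-06). Of 11 genes of SREBP transport and turnover, 1 passed in AhR-deficient cells (9.09%), and in wild type Syvn1 rose and Erlin1 and Ubxn8 fell. Sec24a, a coat protein gene of vesicles leaving the endoplasmic reticulum, rose in AhR-deficient cells (0.33 ± 0.10, edgeR adjusted p = 0.0203). Of 11 genes that use isoprenoids, 2 rose (18.2%) and 1 fell (9.09%) in each genotype, and the one that fell was Coq2 of ubiquinone synthesis (-0.35 ± 0.06 in AhR-deficient cells and -0.17 ± 0.05 in wild type, edgeR adjusted p = 0.000331 and 0.0187).

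Sterol efflux genes moved in both directions as well. Of 6 genes of LXR and sterol efflux, 3 rose (50.0%) and 2 fell (33.3%) in each genotype. Abca1, which exports cholesterol to apolipoproteins, averaged 30.4 ± 1.15 CPM in IL-4 and 195 ± 15.5 CPM in medium in AhR-deficient cells, and 30.9 ± 5.35 CPM in IL-4 and 206 ± 61.2 CPM in medium in wild type. It fell by 2.68 ± 0.21 and by 2.74 ± 0.18 on the log2 scale (edgeR adjusted p = 3.07e-07 and 3.71e-08). Abcg1, which exports cholesterol to larger lipoproteins, rose by 1.98 ± 0.16 in AhR-deficient cells and 1.41 ± 0.14 in wild type (edgeR adjusted p = 5.21e-07 and 1.99e-06). Nr1h3, which encodes LXR-alpha, fell by 1.55 ± 0.15 in AhR-deficient cells and by 1.52 ± 0.14 in wild type (adjusted p = 3.37e-06 and 9.55e-07), and was higher in AhR-deficient than in wild-type cells, by 0.83 ± 0.15 in IL-4 and 0.86 ± 0.14 in medium (adjusted p = 0.0204 and 0.00524). Of 13 tested genes of sterol storage, uptake and oxysterols, 3 rose (23.1%) and 5 fell (38.5%) in AhR-deficient cells and 3 rose (23.1%) and 7 fell (53.8%) in wild type, with Mylip, an LXR-induced ubiquitin ligase gene, at -0.95 ± 0.08 and -0.82 ± 0.07 (adjusted p = 1.17e-06 and 8.74e-07). Of 10 genes of fatty acid oxidation, 5 passed in AhR-deficient cells, all of them higher (50.0%), and 5 rose (50.0%) and 1 fell (10%) in wild type. These included the coactivator gene Ppargc1b, which rose by 5.83 ± 0.22 in AhR-deficient cells and 6.26 ± 0.19 in wild type (edgeR adjusted p = 2.78e-10 and 1.68e-11).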

How the data were processed

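Each library was made from 500 ng of RNA of bone-marrow monocytes with a stranded mRNA kit and read as paired 100-nt reads, per the labels. The authors deposited raw counts per gene, 1 column per library, and all 14 columns matched a sample by title. STAR, FastQC and the mm10 build are named per the submitters' processing notes. Their versions, the counting program, its annotation and strand setting, and any filter, were not given in the sources used here. Symbols and positions came from GENCODE M21 (GRCm38), which matched 55094 of 55487 gene IDs with their version and 55394 without it.

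The deposited counts were tested with edgeR 4.0.16 in R 4.3.3. filterByExpr with default settings, given the 4 groups, kept 14754 genes with at least 99.95% of the counts of each library, and TMM set the library scaling. All 14 libraries entered 1 quasi-likelihood model of the group means (10 residual degrees of freedom). Calls are adjusted p under 0.05, by Benjamini-Hochberg over every gene kept. Errors of fold changes are SE, and those of CPM are SD. Counts of replicates spread beyond counting error (chi-square per degree of freedom 13.2 to 57.5). The edgeR steps were tested on simulated counts for the IL-4 response of each genotype. Those counts held no library effects shared between genes, and the genotype differences and the interaction were not tested on them.

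For numbers 1 to 6, libraries of the same number deviated together from their group means (r of 0.4735 to 0.7161 over 8688 genes). Each of these IL-4 libraries matched best with the medium library of its own number. For number 7 r was 0.118, and its IL-4 library matched better with a wild-type medium library of another number. The data thus pair numbers 1 to 6, and the labels state no pairing. Pair counts and the block treat number 7 as a pair without that support. Alternatives were DESeq2 size factors, the DESeq2 1.42.0 Wald test, no filter, only the groups compared, the number as a block (fixed, or random with limma 3.58.1 for genotype differences), each library left out in turn, and wild-type numbers 1 and 2 left out. Leaving out both libraries of number 4, or of number 7, was chosen after seeing the data. All 32 genes are named, and from each other list up to 4 genes with the smallest adjusted p in an IL-4 response could be named. The 32 genes and all lists were chosen with earlier results of these data known, so no set test and no list-wide adjustment was made. Upstream sequences are from RefSeq.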

Additional observations from a re-analysis of the deposited data

Results flagged for a closer look

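Each of the 32 genes was examined in the 2 wild-type groups of 4 libraries, 64 groups in all, for a library whose gap to the nearest other was above Dixon's 95% limit as a share of the range of its group. Chance flags about 1 in 20 such groups, and 3 were found. Msmo1, a sterol demethylation gene, was at 37.7 CPM in wild-type IL-4 number 7, below the 45.9 to 46.9 CPM of the other 3 libraries. Pmvk was at 14.6 CPM in wild-type medium number 7, above the 12 to 12.4 CPM of the others. Dhcr7 was at 6.67 CPM in wild-type IL-4 number 3, below the 7.53 to 7.68 CPM of the others. Number 7 was also the wild-type library nearest to the AhR-deficient libraries on the second principal component over all genes.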

How the results depend on the processing

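No called fold change of the 32 genes changed sign under any alternative run. DESeq2 size factors left the calls of the 32 genes as they were in every comparison. The number of genes of the set that rose in AhR-deficient cells was 3 without both libraries of number 4, and in wild type 7 without wild-type numbers 1 and 2. Both settings have fewer libraries, and whether all genes lost calls to a like extent is not shown here. For the genotype difference in medium, the genes called higher were 8 by DESeq2, 0 with only the 2 groups compared, 0 without numbers 1 and 2 and 1 without number 4, and those called lower were 0 in the last 3 of these. For the genotype difference in IL-4, the genes called lower were 0 without numbers 1 and 2 and 0 without number 4. Over all genes, the genotype difference in IL-4 was called for 361 genes with no filter, 802 by DESeq2, 523 with only the 2 groups, 25 without numbers 1 and 2 and 23 without number 4. In medium, 1990 genes were called by DESeq2, 59 with only the 2 groups, 30 without numbers 1 and 2 and 60 without number 4. The interaction was called for 3 genes by DESeq2. With 1 library left out, genes of the set called higher in medium ran from 1 to 6 and lower from 0 to 2 (95 to 1716 of all genes), and lower in IL-4 from 0 to 1 (24 to 533 of all genes). With the replicate block, 8 genes of the set rose and 3 fell with IL-4 in AhR-deficient cells, 15 rose and 2 fell in wild type, and 420 of all genes were called between genotypes in IL-4. The block changed no call of the set other than those of Fdft1, Elovl6, Idi1 and Cyp51 given above. Low counts limit Scd1, Fdps and Fads2.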
